A study of Mus musculus with 11 samples.

Results

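H3K27ac, the acetylated form of histone H3 found at active promoters and enhancers, was compared between Isl1CKO and Control pancreatic endocrine cells of mice at postnatal day 9. The comparison used 4 of the 11 samples of the series, 2 libraries per genotype, and 31479 regions assigned to 16450 genes. Control mice were Isl1loxP/+;Neurod1-cre, so they carried 1 floxed Isl1 allele and the Cre driver themselves. Isl1CKO mice were Isl1loxP/loxP;Neurod1-cre. Both genotypes were male and female littermates on a C57BL/6 background and carried the Ai14 tdTomato reporter. Cre was driven by Neurod1, which is active in endocrine precursors and their descendants, so every tdTomato+ cell sorted from a pancreas, of whatever hormone type, entered the same library. Each library came from its own pool of 3 to 4 pancreases and about 20000 sorted cells. The assay was CUT&Tag: an antibody brings a transposase to the mark and the released fragments are counted. In such bulk samples, fewer cells of a type and less mark per cell cannot be told apart.

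ISL1 is a LIM-homeodomain transcription factor present in all islet endocrine lineages, where it acts together with the cofactor LDB1 and is needed for endocrine cells to mature. Acetylation of H3K27 is placed by the coactivators p300 and CBP, which transcription factors bring to promoters and enhancers, and it is removed by histone deacetylases. In beta cells the mark is found at genes of glucose sensing, insulin secretion and hormone processing.

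The labelled cell type was read first from its markers. H3K27ac over all regions of Neurod1, whose promoter drives Cre, measured 248 and 235 CPM in Control and 287 and 255 in Isl1CKO, with 3 of its 5 regions inside Cerkl. Pax6, a pan-endocrine factor, measured 239 and 228 CPM in Control and 219.8 and 216 in Isl1CKO. The log2 fold changes of Isl1CKO over Control were 0.17 (standard error 0.21) and -0.10 (standard error 0.22), each smaller than its error. The mark at the hormone genes Ins2, Gcg and Sst and the delta cell factor Hhex is not analysed here, since no region used here is assigned to them. Some markers of other pancreatic cells were without a region too, including the acinar genes Prss1, Pnlip, Cel and Ptf1a, the endothelial genes Cdh5 and Kdr, the mesenchymal genes Pdgfra and Col3a1 and the immune genes Ptprc and Adgre1. Of 14 listed ductal genes, however, 11 were tested. Their medians were 105 and 40.0 CPM in Control, beside 41.7 in both Control libraries over all tested genes. The immune gene C1qa measured 235 and 239.7 CPM in Control. Missing regions are not read here as absence of such cells.

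RefSeq promoter sequences (build GRCm38.p6) are shown for 4 islet genes whose H3K27ac over all their regions measured lower in both Isl1CKO libraries than in both Control libraries. Each covers the 250 bases before the gene's start, written 5′ to 3′ on the gene's strand. Capitals mark TAAT, the core word of homeodomain factors, on either strand (TAAT or ATTA).
Adra2a: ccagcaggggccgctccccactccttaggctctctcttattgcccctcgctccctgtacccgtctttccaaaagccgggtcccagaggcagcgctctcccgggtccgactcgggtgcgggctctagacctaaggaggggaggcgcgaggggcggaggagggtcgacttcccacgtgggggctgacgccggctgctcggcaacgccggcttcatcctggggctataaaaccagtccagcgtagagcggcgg
Glp1r: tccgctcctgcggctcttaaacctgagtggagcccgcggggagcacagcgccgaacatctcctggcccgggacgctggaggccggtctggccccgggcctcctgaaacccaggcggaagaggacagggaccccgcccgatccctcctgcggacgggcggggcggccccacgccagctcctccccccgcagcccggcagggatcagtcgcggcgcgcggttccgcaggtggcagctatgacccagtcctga
Pcsk1: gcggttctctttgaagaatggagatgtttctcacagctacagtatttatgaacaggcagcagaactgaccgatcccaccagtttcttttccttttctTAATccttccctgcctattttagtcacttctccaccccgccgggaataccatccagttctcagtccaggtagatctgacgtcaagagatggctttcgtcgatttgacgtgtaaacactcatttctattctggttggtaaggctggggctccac
Ucn3: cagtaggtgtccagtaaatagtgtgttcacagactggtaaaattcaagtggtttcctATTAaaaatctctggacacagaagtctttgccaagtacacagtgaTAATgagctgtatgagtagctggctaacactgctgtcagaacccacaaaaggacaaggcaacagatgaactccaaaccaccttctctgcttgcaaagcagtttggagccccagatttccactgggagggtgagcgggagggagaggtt
Ucn3, on the minus strand, held 2 TAAT words, 1 of which overlaps the longer word TAATG, searched on both strands as TAATG and CATTA. Pcsk1 held 1 TAAT and no TAATG, and Adra2a and Glp1r held neither in these 250 bases. Pcsk1, Adra2a and Glp1r lie on the plus strand. Among 27025 RefSeq promoters of the same length, 55.3% held TAAT and 24.2% held TAATG. A match describes the letters only. GC content was 67.6% for Adra2a, 73.2% for Glp1r, 46.8% for Pcsk1 and 46.4% for Ucn3. Of the 16444 gene symbols with a region, 9509 matched the promoter table, and Kcnj11, Abcc8 and Mafa were not among them.

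Control replicate 2 stood apart from the other 3 libraries. Counts in regions totalled 1307049 and 1815511 in the Control libraries and 681047 and 1441926 in the Isl1CKO libraries. Across the 30036 tested regions, log2 levels of Control replicate 2 correlated with the others at r = 0.451 to 0.497, against 0.680 to 0.722 among the other 3, as a description over regions that share libraries. The 2 Control libraries differed by over 2-fold at 35.04% of regions, against 25.5% for the 2 Isl1CKO libraries. Over 70% of the scaled signal fell in Control replicate 2 at 1162 regions, compared with 17 in Control replicate 1 and 7 and 34 in the Isl1CKO libraries. Those 1162 regions were narrow, with a median width of 514 bp against 999 bp for all regions, and 44.1% lay in introns and 21.5% in distal intergenic sequence. The low-count filter removed 970 of them. Results are therefore given with all 4 libraries and again without Control replicate 2, where the lone Control library is assumed to vary like the Isl1CKO pair. The p values of that second fit use a spread shared across features. Its calls are therefore not read here as stronger evidence than the fit with all 4 libraries.

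Regions were grouped by the authors' annotation into promoters within 1 kb of a start (39.3% of regions), promoters at 1 to 3 kb (8.37%), introns (28.2%), exons with UTRs and downstream sequence (12.9%), and distal intergenic sequence (11.3%). With all 4 libraries, promoters within 1 kb had a median log2 fold change (Isl1CKO over Control) of 0.08, while introns stood at -0.18 and distal regions at -0.22, beside -0.03 over all 30036 tested regions, of which 51.4% stood below 0 and 48.6% above. Promoters at 1 to 3 kb stood at -0.10 and exons, UTRs and downstream regions at -0.00. Both Isl1CKO libraries were under both Control libraries at 24.8% of distal regions, 22.6% of intron regions and 15.9% of promoters within 1 kb, beside 19.4% of all regions. They lay above both at 14.7%, 14.7% and 20.7% of these classes, beside 18.1% of all regions. The split between promoters and distal sequence was not seen without Control replicate 2. Without it the medians were 0.00 at promoters within 1 kb, 0.05 at promoters at 1 to 3 kb, 0.04 in introns, 0.11 in exons, UTRs and downstream regions, and -0.00 in distal regions. Without Control replicate 1 in its place they widened to 0.22 at promoters within 1 kb, -0.26 in introns and -0.30 in distal regions.

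**Figure D1:**
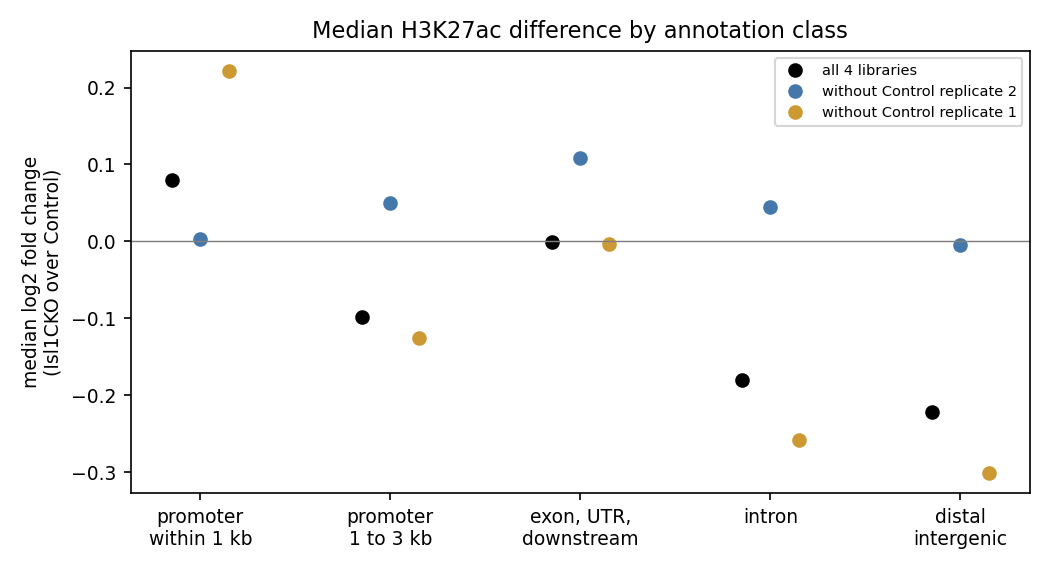
Median log2 fold change of H3K27ac (Isl1CKO over Control) for 5 annotation classes, with all 4 libraries, without Control replicate 2 and without Control replicate 1. Without Control replicate 2 the 5 medians sit between -0.00 and 0.11; without Control replicate 1 they run from -0.30 in distal regions to 0.22 at promoters within 1 kb.

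The share of counts by class turned on the same library. Promoters within 3 kb took 65.6% of the counts in Control replicate 1 and 59.2% in Control replicate 2, against 66.2% and 64.6% in Isl1CKO. The means were 62.4% ± 4.52 and 65.4% ± 1.12 (SD, n = 2), a difference of 2.99 percentage points with a 2-sided exact permutation p of 0.667. The smallest p that 2 against 2 libraries allow is 0.333. Without Control replicate 2 the difference was -0.21 points. Distal regions took 6.61% and 8.18% in Control and 6.24% and 6.36% in Isl1CKO. Here the groups did not overlap, with a difference of -1.10 points (exact permutation p = 0.333). Introns took 16.5% and 20.7% in Control and 15.9% and 17.2% in Isl1CKO, with overlap. Weak regions followed the same library. The 7509 tested regions with the lowest mean level had a median log2 fold change of -0.49 and the 7509 with the highest 0.16, and without Control replicate 2 these were -0.04 and 0.05.

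No region was called at an edgeR adjusted p below 0.05 (0 of 30036, or 0%), with 937 lower (3.12%) and 814 higher (2.71%) at an unadjusted p below 0.05, 29 called by DESeq2 (8 lower, 0.0266%, and 21 higher, 0.0699%) and 2 by voom with sample weights. Without Control replicate 2, edgeR called 5 regions lower (0.0166%) and 10 higher (0.0333%), and without Control replicate 1 it called 227 lower (0.756%) and 673 higher (2.24%). In the authors' deposited table the median log2 fold change over regions was 0.46, and 8750 regions (27.8%) were higher and 2912 (9.25%) lower at an adjusted p below 0.05. Counts were also summed over the regions assigned to each gene, which left 15997 tested genes. At this level 0 genes (0%) were called. The smallest adjusted p was 0.0687. An unadjusted p below 0.05 was reached by 672 genes measuring lower (4.2%) and 527 measuring higher (3.29%) in Isl1CKO. DESeq2 called 76 genes, 52 lower (0.325%) and 24 higher (0.15%), and voom with sample weights 51. Without Control replicate 2, edgeR called 11 genes lower (0.0688%) and 19 higher (0.119%), and without Control replicate 1 it called 455 lower (2.84%) and 533 higher (3.33%). The genes called without Control replicate 2 all had the Isl1CKO pair wholly above or wholly below the Control pair, replicate 2 included. Their calls already rested on Control replicate 1 and both Isl1CKO libraries, so this was largely fixed in advance and adds no support. Control replicate 2 could lie close to Isl1CKO, as at Gm45486 with 122 CPM against 111 in Isl1CKO replicate 2. Of all tested genes, 19.7% were wholly lower and 19% wholly higher. Genes are joined to regions by the nearest start, and of 10744 intron and exon regions 59.5% lay inside another gene than the one assigned. For several genes below, the gene that holds such a region is named.

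Genes of the ATP-sensitive potassium channel, which closes when beta cells metabolise glucose and so starts insulin release, measured lower in Isl1CKO. Kcnj11 (ENSMUSG00000096146, chromosome 7, 45743377 to 45750188) encodes its pore. Over its 5 regions it measured 312 and 206 CPM in Control and 123 and 110.1 in Isl1CKO, or 259 ± 74.5 against 116 ± 8.80 (SD, n = 2). Both Isl1CKO libraries were under both Control libraries. The log2 fold change was -1.16 (standard error 0.27) with an adjusted p of 0.263, and -1.43 (adjusted p = 0.00143) without Control replicate 2, where Kcnj11 fell. Gm45486, a predicted gene within the span of Abcc8, was named after its values were seen. Its log2 fold change was -1.12 (edgeR adjusted p = 0.485) with all 4 libraries and -1.59 without Control replicate 2. It measured 278 and 122 CPM in Control and 68.8 and 111 in Isl1CKO over 8 regions, and its log2 fold change was -0.41 (adjusted p = 0.557) without Control replicate 1. Of all tested regions, 51.4% had a log2 fold change below 0 and 19.4% had both Isl1CKO libraries under both Control libraries. All 5 Kcnj11 regions had log2 fold changes below 0, 4 of them without overlap. The widest, over the start (chromosome 7, 45746100 to 45750616), measured 188 and 154 CPM in Control and 89.8 and 96.3 in Isl1CKO, a log2 fold change of -0.88 (standard error 0.32). A region 4447 bp upstream (chromosome 7, 45754635 to 45755565), which the annotation places in an exon of Abcc8, measured 36.3 and 20.8 CPM in Control and 6.09 and 3.51 in Isl1CKO. Restricted to the 3 promoter regions the Kcnj11 log2 fold change was -1.12.

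Abcc8 (ENSMUSG00000040136, chromosome 7, 45753947 to 45829457), the neighbouring gene for the sulfonylurea receptor subunit of the same channel, measured 187 and 148 CPM in Control and 83.7 and 73.7 in Isl1CKO over 4 regions. The groups did not overlap, and the log2 fold change was -1.09 (standard error 0.32) with an adjusted p of 0.396, and -1.26 (adjusted p = 0.0934) without Control replicate 2. The difference was uneven along the gene. The region 1 to 2 kb inside the start carried most of it, with 96.5 and 86.6 CPM in Control and 25.9 and 28.1 in Isl1CKO, whereas the region over the start (chromosome 7, 45828662 to 45829815) measured 59.4 and 15.9 CPM in Control and 48.7 and 32.3 in Isl1CKO with overlapping groups. An intron region (chromosome 7, 45805802 to 45806438) measured 10.0 and 37.8 CPM in Control and 3.04 and 4.22 in Isl1CKO, also without overlap, though Control replicate 2 was highest there.

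Of the 24 listed genes of beta cell identity, 20 were tested, and 17 had a log2 fold change below 0, as did 51.2% of all tested genes. Their median was -0.55, beside -0.02 over all genes, and -0.23 without Control replicate 2, beside 0.02. Both Isl1CKO libraries were under both Control libraries for 7 of the 20 (35%) and above for 0, beside 19.7% and 19.0% of all genes. An unadjusted edgeR p below 0.05 in the lower direction was reached by 6, and by 4.2% of all genes. Among the 7 were Kcnj11, Abcc8, Ucn3, Mafa, Glp1r and Pcsk1. Ucn3, a peptide that beta cells release as they mature, measured 34.9 and 39.5 CPM in Control and 0 and 7.01 in Isl1CKO, or 37.2 ± 3.26 against 3.51 ± 4.96 (SD, n = 2), and its log2 fold change was -3.14 (standard error 0.95). Mafa, a factor that switches on as beta cells mature, measured 44.7 and 67.5 CPM in Control and 16.4 and 9.12 in Isl1CKO, a log2 fold change of -2.18 (standard error 0.63) that was -1.86 without Control replicate 2. Adjusted p was 0.435 for Ucn3 and 0.396 for Mafa, so neither passed. Pcsk1, which encodes the prohormone convertase that cleaves proinsulin, has its 1 region over the start (chromosome 13, 75237661 to 75238752) and measured 47.0 and 40.0 CPM in Control and 14.9 and 16.8 in Isl1CKO, a log2 fold change of -1.44 (standard error 0.62) with an adjusted p of 0.642. The 2 libraries of each genotype lay close together there, at 43.5 ± 4.93 against 15.9 ± 1.33 (SD, n = 2).

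At other beta cell genes the genotypes overlapped. Pdx1 measured 119.8 and 141 CPM in Control and 135 and 85.6 in Isl1CKO and Nkx6-1 212 and 194 CPM in Control and 242 and 201 in Isl1CKO, both homeobox factors of beta cells. Slc2a2, the glucose transporter, measured 80.4 and 105 CPM in Control and 59.8 and 103 in Isl1CKO. Several low values rested on Control replicate 2 alone. Trpm5, a cation channel, measured 12.9 and 51.0 CPM in Control and 17.9 and 17.5 in Isl1CKO, with a log2 fold change of -0.86 that became 0.46 without that library. Ins1 likewise went from -1.05 to 0.48, the sign turning with it.

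**Figure D2:**
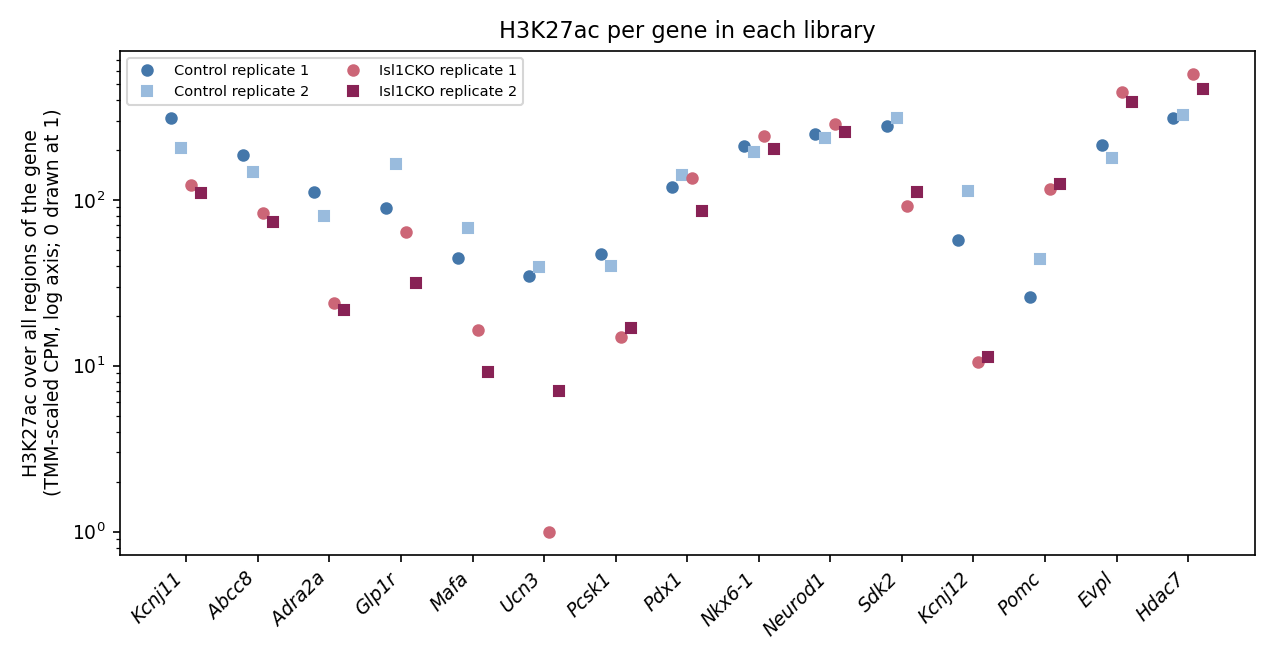
H3K27ac summed over all regions of 15 genes in each library (TMM-scaled CPM, log axis; 0 is drawn at 1), 4 points per gene. The Isl1CKO points lie below both Control points for Kcnj11, Abcc8, Adra2a, Glp1r, Mafa, Ucn3, Pcsk1, Sdk2 and Kcnj12, above them for Pomc, Evpl and Hdac7, above by a narrow gap for Neurod1, and among them for Pdx1 and Nkx6-1.

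Receptors of islet cells showed their clearest difference at Adra2a (ENSMUSG00000033717, chromosome 19, 54032582 to 54037413), the alpha-2A adrenergic receptor through which adrenaline restrains insulin release. It measured 111 and 80.1 CPM in Control and 23.9 and 21.7 in Isl1CKO, or 95.8 ± 22.2 against 22.8 ± 1.54 (SD, n = 2). Every one of its 3 regions measured lower in both Isl1CKO libraries than in both Control libraries, as did 19.4% of all tested regions. The log2 fold change was -2.07 (standard error 0.47) with an adjusted p of 0.263. Adra2a passed the test when either Control library was left out, at -2.29 (adjusted p = 0.0100) without replicate 2 and -1.82 (adjusted p = 0.0307) without replicate 1. The region 2 to 3 kb from the start (chromosome 19, 54034769 to 54036347) measured 67.9 and 30.1 CPM in Control and 12.2 and 3.51 in Isl1CKO. Its log2 fold change was -2.76 (edgeR adjusted p = 0.838), and -3.28 without Control replicate 2. The promoter region 356 bp from the start (chromosome 19, 54032938 to 54034207) measured 33.2 and 32.3 CPM in Control and 7.61 and 14.1 in Isl1CKO, a log2 fold change of -1.54 (standard error 0.72).

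Glp1r, the incretin receptor of beta cells, measured 88.7 and 165 CPM in Control and 64.3 and 31.6 in Isl1CKO, a log2 fold change of -1.45 (standard error 0.44) that was -0.94 without Control replicate 2. Control replicate 2 was the highest library. A Glp1r exon region (chromosome 17, 31128022 to 31128323) measured 0.772 and 34.5 CPM in Control and 0 and 0 in Isl1CKO and was filtered out as low. Among the 23 tested receptor and signalling genes, 18 had a log2 fold change below 0, as did 51.2% of all tested genes. Their median was -0.50, and -0.21 without Control replicate 2. Both Isl1CKO libraries were under both Control libraries for 5 (21.7%), near the 19.7% of all genes. They were above both for 1 (4.35%), beside 19.0% of all genes. Gipr, the receptor of the other incretin, measured 105 and 62.5 CPM in Control and 149 and 106 in Isl1CKO, higher in Isl1CKO replicate 1 and level with Control replicate 1 in replicate 2.

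Ghsr, the ghrelin receptor of delta cells, was listed with 41.7 and 69.1 CPM in Control and 4.48 and 8.42 in Isl1CKO and a log2 fold change of -3.01 (standard error 0.69), but its 3 regions lie 57349 to 59144 bp from its start and inside Fndc3b (for example chromosome 3, 27483312 to 27484473). They describe that stretch rather than the Ghsr promoter. Sstr3, a somatostatin receptor, showed opposite differences within 1 gene. Its promoter region (chromosome 15, 78425068 to 78430328) measured 181 and 182 CPM in Control and 205 and 186 in Isl1CKO. A region annotated as 3′ UTR (chromosome 15, 78421662 to 78423093) measured 61.8 and 26.3 CPM in Control and 6.09 and 7.73 in Isl1CKO. The log2 fold change there was -2.62 (edgeR adjusted p = 0.838), and -3.11 without Control replicate 2. A region annotated as 5′ UTR (chromosome 15, 78424300 to 78424931) measured 3.86 and 4.38 CPM in Control and 34.99 and 16.2 in Isl1CKO, above both Control libraries. Over all 5 Sstr3 regions the log2 fold change was -0.05 (standard error 0.21), so the sum hid both.

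Islet transcription factors as a group were close to the median of all genes with all 4 libraries, but lower without Control replicate 2. Of 23 tested, 11 had a log2 fold change below 0, with a median of 0.05, beside -0.02 over all genes. Without Control replicate 2 the median was -0.22, beside 0.02. After Mafa, the lowest was Mnx1, a homeobox factor of beta cells, at 28.1 and 94.3 CPM in Control and 17.9 and 16.1 in Isl1CKO. Its log2 fold change of -1.86 (standard error 0.64) was -0.72 without Control replicate 2, which was the high library. Rfx6, a regulator of endocrine differentiation, measured 121 and 77.9 CPM in Control and 156.96 and 135 in Isl1CKO, a log2 fold change of 0.55. Insm1, Nkx2-2 and Myt1 had log2 fold changes of 0.15, 0.11 and 0.18. The groups overlapped for Insm1 and Nkx2-2, and for Myt1, at 219 and 207 CPM in Control and 260.1 and 225 in Isl1CKO, they were narrowly apart.

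The secretory machinery was likewise mixed, with 11 of 29 tested genes below 0 and a median of 0.06, and -0.04 without Control replicate 2. Both Isl1CKO libraries were under both Control libraries for 6 (20.7%) and above for 2 (6.90%), beside 19.7% and 19.0% of all genes. Chga, a granule protein of all endocrine cells, measured 372 and 332 CPM in Control and 368 and 318 in Isl1CKO. Syt7, a calcium sensor of granule release, measured 708 and 666 CPM in Control and 797 and 732 in Isl1CKO. Scg2, a granule protein of the secretogranin family, had 1 region, 38542 bp from its start, with 19.0 and 36.2 CPM in Control and 0 and 4.91 in Isl1CKO and a log2 fold change of -3.21 (standard error 1.12), at an adjusted p of 0.530.

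Genes of other endocrine types gave few measured members. Of 11 tested alpha cell genes, 5 had a log2 fold change below 0, with a median of 0.06, and -0.51 without Control replicate 2, a change of sign that rests on that library. Gpr158 measured 26.5 and 47.7 CPM in Control and 19.4 and 9.82 in Isl1CKO, and Kcnj3 6.83 and 20.8 CPM in Control and 20.9 and 47.7 in Isl1CKO, the opposite order. Of 10 genes of PP and epsilon cells, 5 were tested, with a median of -1.22, and -0.69 without Control replicate 2. Pyy, peptide YY, measured 73.6 and 23.6 CPM in Control and 14.9 and 18.2 in Isl1CKO, with only Control replicate 1 high. Frzb, a secreted Wnt antagonist, measured 44.0 and 96.0 CPM in Control and 37.4 and 18.9 in Isl1CKO. Of 11 delta cell genes, 3 were tested, namely Ghsr, Rbp4 and Cacna2d3. Cacna2d3, a calcium channel subunit, measured 5.31 and 6.58 CPM in Control and 23.9 and 37.2 in Isl1CKO, a log2 fold change of 2.35 (standard error 0.87) with an adjusted p of 0.563.

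Endocrine progenitor genes had a median of -0.05 over 16 tested. Neurog3, which starts endocrine differentiation, measured 66.7 and 34.0 CPM in Control and 86.7 and 82.8 in Isl1CKO, and its Control libraries differed from each other more than Isl1CKO differed from Control replicate 1. Nkx6-2 and Sox9 measured lower, at 9.86 and 26.9 CPM in Control and 4.48 and 1.40 in Isl1CKO and 12.1 and 38.4 CPM in Control and 5.98 and 8.42 in Isl1CKO, and Control replicate 2 was the highest library for both. The only Nkx6-2 region lies in an intron of Inpp5a. Genes normally silent in mature beta cells had a median of -0.15 over 15 tested. In this group Acot7, an acyl-CoA thioesterase, measured 12.9 and 23.0 CPM in Control and 2.99 and 0 in Isl1CKO, and C1qbp, a mitochondrial protein, measured 15.2 and 8.23 CPM in Control and 49.3 and 24.6 in Isl1CKO, so the 2 members with the smallest p went in opposite directions. Gut endocrine genes had a median of -0.31 over 9 tested. Lmx1a, a homeobox factor of serotonin-producing cells, measured 12.9 and 39.5 CPM in Control and 2.99 and 3.51 in Isl1CKO, and again Control replicate 2 was highest.

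**Figure D3:**
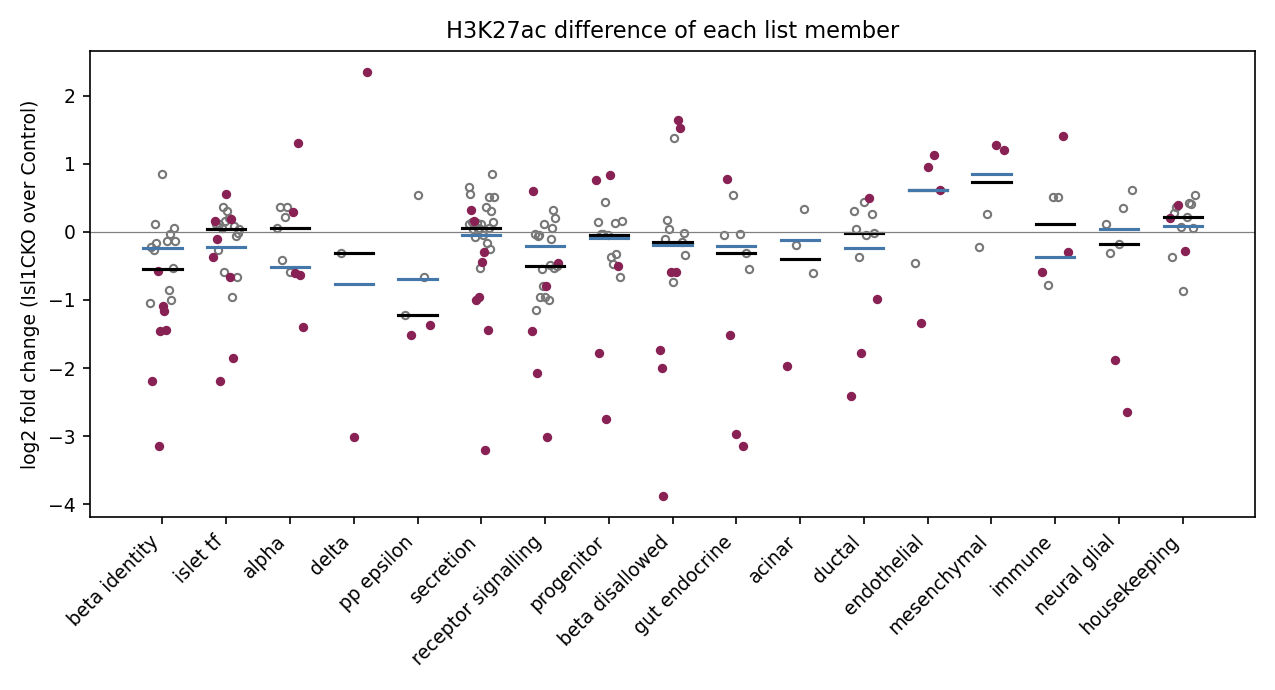
Gene-level log2 fold change of H3K27ac (Isl1CKO over Control) for each tested member of 17 gene lists. Filled points are genes whose Isl1CKO libraries both lie on one side of both Control libraries; black bars are list medians with all 4 libraries and blue bars those without Control replicate 2. The beta identity median is -0.55 and -0.23, and the islet transcription factor median 0.05 and -0.22.

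The lists of endothelial and mesenchymal markers had medians above 0. The 5 tested endothelial genes had a median log2 fold change of 0.62, with and without Control replicate 2, and summed to 135 and 159 CPM in Control and 200.3 and 208 in Isl1CKO. Cldn5, a junction protein with 2 of 3 regions in Cdc45, measured 53.8 and 36.2 CPM in Control and 85.2 and 89.1 in Isl1CKO, and Esam, an adhesion molecule, 40.2 and 17.0 CPM in Control and 67.3 and 56.8 in Isl1CKO. Pecam1, another endothelial adhesion molecule, measured 15.9 and 76.2 CPM in Control and 29.9 and 37.2 in Isl1CKO, with overlap. Tek, the angiopoietin receptor, measured 12.9 and 21.9 CPM in Control and 1.49 and 11.2 in Isl1CKO, with both Isl1CKO libraries under Control. Of the 5, 3 had a log2 fold change above 0 and 2 below. The 4 tested mesenchymal genes summed to 51.6 and 50.5 CPM in Control and 80.7 and 68.7 in Isl1CKO, with a median of 0.74. Of these 4, 3 had a log2 fold change above 0 and 1 below. Tagln, a smooth muscle protein, measured 11.4 and 6.58 CPM in Control and 22.4 and 21.0 in Isl1CKO, and Barx1, a homeobox gene, 9.86 and 7.68 CPM in Control and 17.9 and 22.4 in Isl1CKO. Neither passed, with edgeR adjusted p values of 0.799 for Tagln and 0.812 for Barx1. The only Barx1 region lies 31022 bp from its start. Of the 13 endothelial and 14 mesenchymal genes listed, 8 and 10 had no region, Cdh5, Kdr, Pdgfra and Col3a1 among them. The part of such cells in the other differences was not tested.

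Acinar genes summed to 552 and 501 CPM in Control and 466 and 425 in Isl1CKO over 4 tested members. Cpa1 made most of that difference, and its 1 region (chromosome 6, 30626901 to 30629022) lies 10195 bp upstream in an exon of Cpa5. It measured 94.0 and 61.4 CPM in Control and 17.9 and 21.0 in Isl1CKO. The Cpa1 log2 fold change was -1.97 (standard error 0.52, edgeR adjusted p = 0.348), and -2.25 without Control replicate 2. Nr5a2, a nuclear receptor of acinar cells, measured 56.9 and 108 CPM in Control and 67.3 and 42.8 in Isl1CKO, with overlap. Ductal genes summed to 1289.9 and 1059 CPM in Control and 1299 and 1179.9 in Isl1CKO, with a median of -0.02 over 11 tested. Krt19, the keratin of duct cells, measured 14.4 and 17.0 CPM in Control and 2.99 and 2.81 in Isl1CKO. Immune genes summed to 387 and 309 in Control and 353 and 291 in Isl1CKO, and neural and glial genes to 265 and 295 against 308 and 213. C1qa held most of the immune sum, at 235 and 239.7 CPM in Control and 235 and 157.13 in Isl1CKO, and Coro1a, an actin-binding protein of leukocytes, measured 28.1 and 1.65 CPM in Control and 38.9 and 38.6 in Isl1CKO, with Control replicate 2 at 1.65 the outlying library. Olig3, a neural gene, measured 15.2 and 51.6 CPM in Control and 2.99 and 7.01 in Isl1CKO. Elavl3, another neural gene, measured 19.0 and 51.6 CPM in Control and 7.47 and 11.2 in Isl1CKO. Control replicate 2 was the highest library for both. Without it the log2 fold change went from -2.638 to -1.497 for Olig3 and from -1.879 to -0.977 for Elavl3. The only Olig3 region lies 39202 bp from its start. Of the 7 tested neural and glial genes, 4 had a log2 fold change below 0 and 3 above. Their median was -0.18, and 0.04 without Control replicate 2. Of 13 tested housekeeping genes, 10 had a log2 fold change above 0, as did 48.8% of all genes, with a median of 0.21, and 0.09 without Control replicate 2. Hsp90ab1, a chaperone, measured 212 and 127 CPM in Control and 256 and 199.9 in Isl1CKO and Eif4a2, a translation factor, 49.3 and 19.2 CPM in Control and 23.9 and 14.03 in Isl1CKO, and the 2 Control libraries lay apart for both.

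The genes with the smallest p were Sdk2 and Gm56672, both lower in Isl1CKO at an adjusted p of 0.0687. Sdk2 (ENSMUSG00000041592, chromosome 11, 113667200 to 113957872), which encodes an adhesion molecule of the immunoglobulin superfamily that guides synaptic layering, had 11 regions, 10 of them in its introns. It measured 279.8 and 312 CPM in Control and 91.2 and 111 in Isl1CKO, or 296 ± 22.4 against 101 ± 13.9 (SD, n = 2), a log2 fold change of -1.54 (standard error 0.25). All 9 tested Sdk2 regions measured lower, and without Control replicate 2 the gene fell at -1.45 (adjusted p = 0.00309). The intron region chromosome 11, 113916492 to 113917666 measured 29.3 and 52.6 CPM in Control and 4.56 and 12.6 in Isl1CKO, and the promoter region chromosome 11, 113955601 to 113957209 measured 37.1 and 85.0 CPM in Control and 15.2 and 22.5 in Isl1CKO. The groups did not overlap at either. Both Isl1CKO libraries were under both Control libraries at 8 of all 11 Sdk2 regions, beside 19.4% of all tested regions. Sdk2 was named for its small p, so this count partly restates that choice. Gm56672, a predicted gene on chromosome 19 with 1 of its 2 regions inside Hspa12a, measured 75.8 and 134 CPM in Control and 10.5 and 8.42 in Isl1CKO, a log2 fold change of -3.50 (standard error 0.55), and -3.02 (adjusted p = 0.00814) without Control replicate 2.

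Of 1653 genes with at least 4 tested regions, 98 (5.93%) had every tested region lower in Isl1CKO and 89 (5.38%) every tested region higher. Among those lower, Kcnj12 (ENSMUSG00000042529, chromosome 11, 60913390 to 60961957), an inward rectifier potassium channel, measured 56.9 and 112 CPM in Control and 10.5 and 11.2 in Isl1CKO over 4 intron regions, a log2 fold change of -2.95 (standard error 0.57). One of them (chromosome 11, 60928901 to 60930094) measured 23.2 and 45.5 CPM in Control and 1.52 and 3.51 in Isl1CKO. Without Control replicate 2 the gene stood at -2.37 (adjusted p = 0.169), so its direction held but it did not pass. Gm38408 measured 156 and 114 CPM in Control and 29.9 and 41.4 in Isl1CKO over 4 regions. Its log2 fold change was -1.89 (edgeR adjusted p = 0.263), and -2.10 without Control replicate 2. Gm44542 measured 56.9 and 100.4 CPM in Control and 17.9 and 11.2 in Isl1CKO, over 4 regions that all lie inside Nalf1. Zfp94, a zinc finger gene with 1 region, measured 31.1 and 60.3 CPM in Control and 2.99 and 1.40 in Isl1CKO. Some further genes were looked up after their values were seen. Derl1, a protein of endoplasmic reticulum quality control, measured 74.3 and 66.9 CPM in Control and 12.0 and 10.5 in Isl1CKO, but 2 of its 3 regions lie in an intron of Zhx2. Its log2 fold change was -2.65 (edgeR adjusted p = 0.263), and -2.73 without Control replicate 2. Th, tyrosine hydroxylase, had 9 regions, the 8 tested ones all lower, and measured 304 and 303 CPM in Control and 141 and 166 in Isl1CKO, a log2 fold change of -0.98 (standard error 0.23) that was -0.98 (adjusted p = 0.0589) without Control replicate 2. Rasgrf1, a Ras exchange factor, measured 77.4 and 136 CPM in Control and 17.9 and 31.6 in Isl1CKO over 5 regions, and at its start 34.7 and 47.7 CPM in Control and 6.09 and 11.2 in Isl1CKO.

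**Figure D4:**
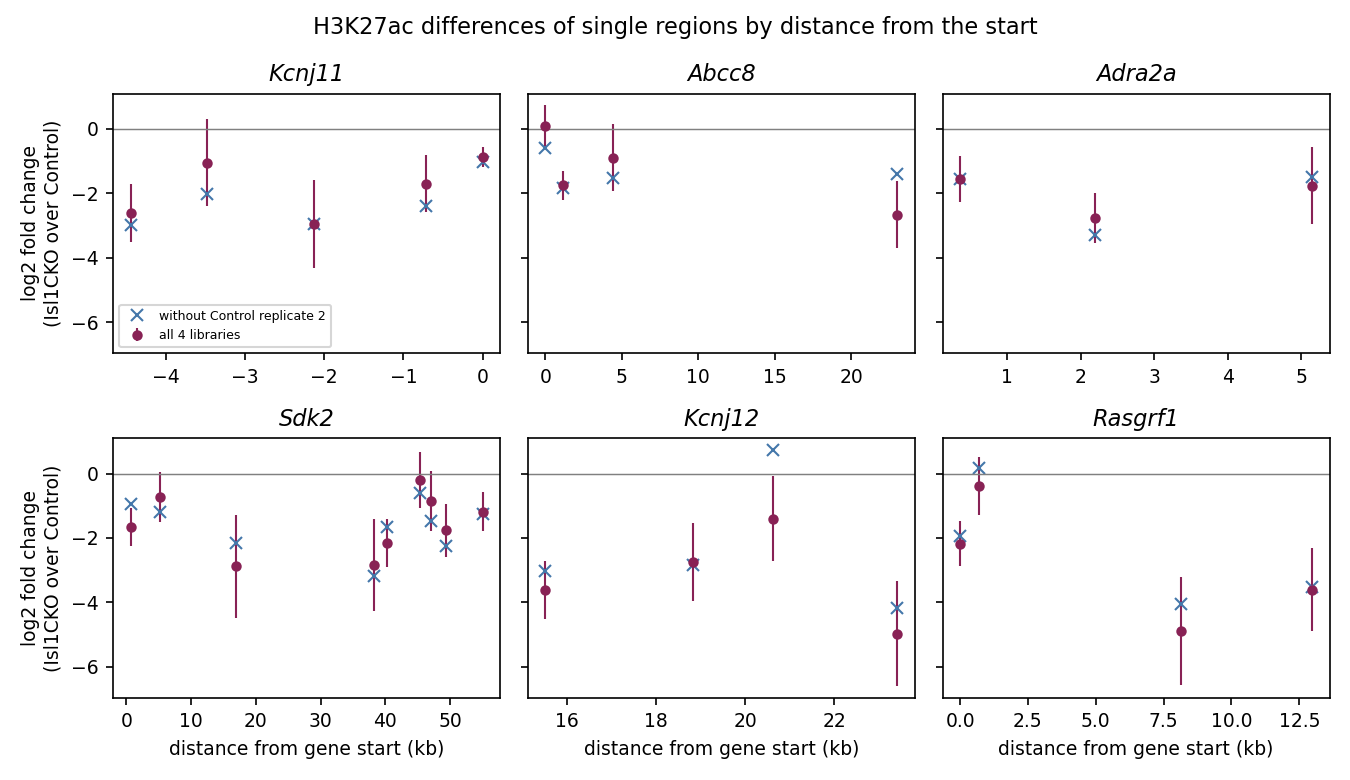
Log2 fold change of H3K27ac (Isl1CKO over Control) for each tested region of 6 genes against its distance from the gene's start in kb. Points with bars are all 4 libraries with the standard error of the fit, and crosses are without Control replicate 2. Every tested region of Kcnj11, Adra2a, Sdk2, Kcnj12 and Rasgrf1 is below 0 with all 4 libraries, while 1 Abcc8 region, over the start, stands at 0.10.

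H3K27ac measured higher in Isl1CKO at a set of genes with many regions and small differences. Gm11748 measured 259 and 211 CPM in Control and 468 and 489.6 in Isl1CKO over 13 regions. Its log2 fold change was 1.03 (standard error 0.19, edgeR adjusted p = 0.197), and 0.89 without Control replicate 2. Of its 13 regions, 12 lie in introns of Rbfox3, the gene of the neuronal splicing factor NeuN. The widest (chromosome 11, 118439235 to 118444176) measured 79.5 and 51.5 CPM in Control and 179.5 and 164 in Isl1CKO. Evpl (ENSMUSG00000034282, chromosome 11, 116111385 to 116128903), which encodes the epithelial junction protein envoplakin, measured 214 and 178 CPM in Control and 444 and 387 in Isl1CKO over 8 regions. Its log2 fold change was 1.08 (standard error 0.20, edgeR adjusted p = 0.204), and 0.95 without Control replicate 2. Its promoter region (chromosome 11, 116127416 to 116129953) measured 44.0 and 68.0 CPM in Control and 135 and 143 in Isl1CKO. Another 2 of its 8 regions lie in exons of Srp68, and 1 region 2 to 3 kb from the start went the other way.

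Pomc (ENSMUSG00000020660, chromosome 12, 4004951 to 4010642), the precursor of the melanocortin and opioid peptides, measured 25.8 and 43.9 CPM in Control and 117 and 124 in Isl1CKO over 2 regions, or 34.8 ± 12.8 against 120.4 ± 5.34 (SD, n = 2). Every Isl1CKO library was above both Control libraries. The log2 fold change was 1.78 (standard error 0.41), with 2.22 (adjusted p = 0.00744) without Control replicate 2 and 1.45 (adjusted p = 0.0170) without replicate 1. Pomc was chosen after its values were seen. Its stronger region, annotated as 3′ UTR (chromosome 12, 4009579 to 4010899), measured 23.9 and 27.4 CPM in Control and 89.8 and 102 in Isl1CKO. Hdac7, a class IIa histone deacetylase, also chosen after its values were seen, measured 311 and 324 CPM in Control and 576 and 462 in Isl1CKO over 9 regions. Its log2 fold change was 0.70 (edgeR adjusted p = 0.348), and 0.73 without Control replicate 2.

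Among genes with at least 4 regions all higher, Tspan33, a tetraspanin, measured 66.0 and 86.1 CPM in Control and 172 and 168 in Isl1CKO, and Lncppara, a non-coding gene with 11 regions, 2 of them in Gm49539, measured 501 and 414 CPM in Control and 719 and 661 in Isl1CKO. Tas1r2, a sweet taste receptor subunit, measured 107 and 58.7 CPM in Control and 189.9 and 184 in Isl1CKO, and Fam163b 51.6 and 46.6 CPM in Control and 112 and 126 in Isl1CKO. Both Isl1CKO libraries were above both Control libraries for all 4. Col27a1, a fibrillar collagen gene with 8 of 9 regions higher, measured 241 and 184 CPM in Control and 423 and 396 in Isl1CKO. Its log2 fold change was 0.95 (standard error 0.21, edgeR adjusted p = 0.263), and 0.76 without Control replicate 2. Gm14508 had 1 and 0 counts (Control) against 30 and 34 (Isl1CKO) in a single region that lies in an intron of Cit (chromosome 5, 116115763 to 116116842). The ratio of summed counts scaled by library size was 96.0, with an exact 95% counting interval of 16.6 to 3850, which covers counting error only.

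**Figure D5:**
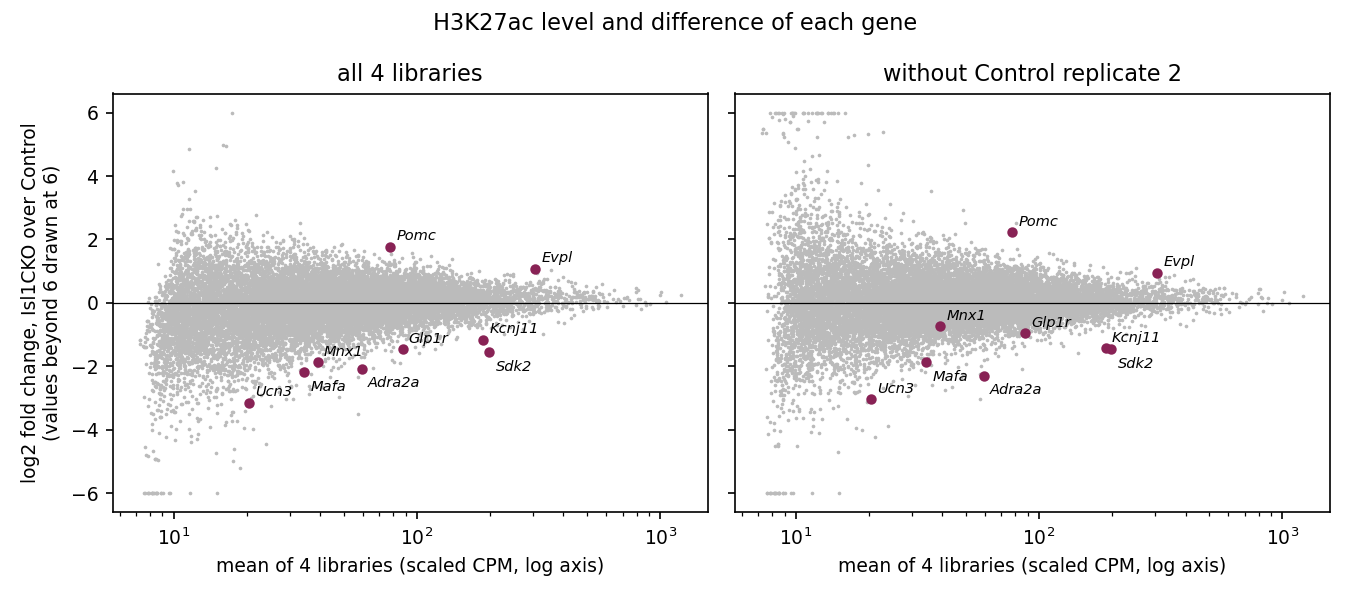
Gene-level log2 fold change of H3K27ac (Isl1CKO over Control; values beyond 6 drawn at 6) against the mean level of the 4 libraries (scaled CPM, log axis) for 15997 tested genes, with all 4 libraries on the left and without Control replicate 2 on the right; named genes are in colour. Sdk2 stands at -1.54 and -1.45 and Evpl at 1.08 and 0.95 in the left and right panels, while Mnx1 moves from -1.86 to -0.72.

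The single regions with the smallest p in each class, of at least 2-fold and without overlap, were mostly in genes outside the lists. None of them was called by edgeR with all 4 libraries. At promoters within 1 kb, 1700029M03Rik (chromosome 1, 164788900 to 164791159) had 62 and 59 counts (Control) against 2 and 3 (Isl1CKO) and fell without Control replicate 2, by 4.23 on the log2 scale (adjusted p = 0.0267). Gm15122 (chromosome 10, 80118702 to 80119302) had 0 and 0 counts (Control) against 14 and 36 (Isl1CKO), at least 24.996-fold higher when the Control pair is set at a floor of 3 counts. C1qtnf5, a secreted C1q-domain protein, had 0 and 0 counts (Control) against 10 and 56 (Isl1CKO), at least 32.995-fold higher with the same floor, and rose without Control replicate 2 (edgeR adjusted p = 0.0267). At 1 to 3 kb, Map2k3, a kinase of the p38 pathway, had 4 and 14 counts (Control) against 37 and 30 (Isl1CKO), and Gm56914 1 and 3 counts (Control) against 13 and 34 (Isl1CKO). Both lay above Control in each Isl1CKO library.

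In introns, a region assigned to Gm11198 but inside Nf1 (chromosome 11, 79257140 to 79258041) had 25 and 30 counts (Control) against 0 and 0 (Isl1CKO), at least 12.2-fold lower. A region assigned to Gm13027 lay inside Igsf21 and had 85 and 100 counts (Control) against 9 and 19 (Isl1CKO). In Fcgbpl1, a region assigned to Gm31024 had 2 and 1 counts (Control) against 21 and 50 (Isl1CKO), a ratio of 35.5 (counting interval 11.7 to 176.2). In exons and UTRs, Gm15261 had 37 and 54 counts (Control) against 1 and 1 (Isl1CKO), a ratio of 0.0330 (counting interval 0.00393 to 0.123), and Gm55746 1 and 2 counts (Control) against 15 and 59 (Isl1CKO). Prr35 had 40 and 48 counts (Control) against 91 and 164 (Isl1CKO), and rose without Control replicate 2 (2.02 (adjusted p = 0.0366)). Among distal regions, Gm49132 had 125 and 92 counts (Control) against 9 and 29 (Isl1CKO) and fell without Control replicate 2 (-2.45 (adjusted p = 0.0369)). Rpl29, a ribosomal protein gene, had 36 and 71 counts (Control) against 0 and 3 (Isl1CKO) at a distal region. The distal region of A430010J10Rik had 4 and 3 counts (Control) against 25 and 41 (Isl1CKO). Lbh, a transcriptional cofactor, had 1 and 0 counts (Control) against 20 and 29 (Isl1CKO) at a region 36879 bp from its start, a ratio of 73.5 (counting interval 12.6 to 2961).

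The 5 regions with the highest mean level per region, at Ahdc1, Plxnb2, Junb, Uqcrh and Ninj1, had log2 fold changes from 0.22 to 0.45, and all 5 stayed above 0 without Control replicate 2. With loess offsets Junb stood at -0.05. The regions with the largest excess in Control replicate 2 moved when that library was left out. Magi1, a scaffold protein of cell junctions, had 63 and 251 counts (Control) against 21 and 35 (Isl1CKO) over its start, and its log2 fold change went from -1.74 to -0.81 without that library. Cbs, the enzyme that starts transsulfuration, went from -2.23 to -1.30, Gm22079 from -1.35 to -0.51, Fam83g from -0.68 to -0.17 and Yif1a from -0.67 to -0.17.

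The deleted gene and the binding of its product were read last. Isl1 (ENSMUSG00000042258, chromosome 13, 116434817 to 116446225) measured 208 and 221 CPM in Control and 199 and 137 in Isl1CKO over its 7 regions, a log2 fold change of -0.36 (standard error 0.26) with an adjusted p of 0.793. Isl1CKO replicate 1 lay near Control and replicate 2 lower. Which part of Isl1 is removed is not given in the sources used here, so the mark does not check the deletion. Among tested genes with a deposited ISL1 promoter value at P9, the 1061 with a value of at least 1 had a median log2 fold change of 0.04 and the 8676 with 0 had 0.01. The 5639 genes with an ISL1 value at E14.5 had a median of 0.06. Kcnj11, Abcc8, Sdk2 and Mafa had E14.5 values of 3, 3, 3 and 6 and P9 values of 0, and Adra2a, Glp1r, Ucn3 and Pomc had 0 at both stages. The P9 values come from 1 library and the E14.5 values from 2, so a P9 value of 0 is not read here as lost binding. The unit of these values is not stated in their header. Regions that overlapped a deposited region of H3K27me3, the Polycomb mark, by at least 1 bp numbered 2034 and had a median log2 fold change of -0.26, against -0.01 for the 28002 others. Without Control replicate 2 the medians were -0.04 and 0.03.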

How the data were processed

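For every H3K27ac library the deposited file holds raw counts in each region, with region coordinates, an annotation and the authors' own log2 fold change, likelihood ratio score, p-value and adjusted p-value. Per the submitters' processing notes, MACS2 2.2.6, Bowtie2 2.3.5.1, edgeR 4.0.16, Picard 2.27.4 and ChIPseeker 1.38.0 were run on build GRCm39. Other steps are not given in the sources used here. The deposited ISL1 values are whole numbers per promoter window whose unit is unknown, handled as a score. Of the columns with values per sample, 0 were left unused.

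From the 31587 deposited rows, 108 repeats were dropped. Each of the 31479 regions kept had at least 50 counts over the libraries. Chromosome labels matched the genes' chromosomes at 7.48% of 18449 checked regions as written, and at 100% after relabelling by the alphabetical order of names. Coordinates printed for regions are GRCm39 with corrected labels, and the positions are those of the file.

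Regions, and counts summed per assigned gene, were filtered with filterByExpr, scaled by TMM and tested with the quasi-likelihood test of edgeR 4.0.16 in R 4.3.3, with 2 libraries per genotype. Benjamini-Hochberg adjustment ran over all tested features, and calls are at an adjusted p below 0.05. CPM are TMM-scaled. A count of 0 in a single library allows a gene up to 1.65 to 4.48 CPM by a floor of 3 counts, and 1.64 to 4.56 for a region. With all libraries kept, p values measure the spread between pools of animals. Where a Control library was left out, the lone Control library has no spread of its own to measure. Without Control replicate 2 the p values followed a normal tail of the log2 fold change over its standard error. They therefore rest on a spread shared across features, and a feature's own spread between pools did not enter them.

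Text names, per class and direction, the 2 regions with the smallest p with and without Control replicate 2 among those of at least 2-fold and without overlap. It also names 4 genes per direction by p, 4 with at least 4 regions of 1 sign, up to 2 members per list, Isl1, the 5 highest regions and the 5 with the largest Control replicate 2 excess. The members, lists and rules were chosen with earlier results of these data known. Alternatives were DESeq2 1.42.0, voom with sample weights (limma 3.58.1), other scalings, no filter, a replicate block, promoter regions only, each library left out and, added after seeing the data, sums by the gene that holds an intron or exon region. Some genes of the lists are not reported here.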

Additional observations from a re-analysis of the deposited data

How the results depend on the processing

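No region was called by edgeR with all 4 libraries, with DESeq2 size factors, library totals or loess offsets, without the low-count filter, or with repeated rows kept, while DESeq2 called 29 and voom with sample weights 2. At gene level the count of 0 became 76 with DESeq2, 51 with voom with sample weights and 2 with loess offsets, and stayed at 0 for promoter regions only and for sums by the gene that holds the region. With 1 library left out in turn, called regions numbered 0 to 900 and called genes 0 to 988, the highest of both without Control replicate 1. Without Isl1CKO replicate 1 the call was 1 gene and without replicate 2 it was 0. With a replicate block, 0 regions and 66 genes were called. The labels do not say that replicate numbers mark a shared litter, and same-numbered libraries deviated together at a correlation of only 0.0483 over regions, so the numbers are not taken as pairs. The difference in the share of counts at promoters within 3 kb ran from -0.21 to 6.18 percentage points with 1 library left out, and its reversal to -0.21 came without Control replicate 2. Many of the genes and regions named by the rules above were chosen by small p or non-overlap in the same counts. Keeping their side was therefore largely fixed in advance and adds no support. Under all alternatives, 867 values of the named genes and regions stayed on the same side. Another 117 passed the test where they had not with all libraries, and 1 turned, the Junb region at -0.0525 with loess offsets. Members described outside those rules are not in these counts, and of them Trpm5 and Ins1 turned without Control replicate 2. The cause of these differences was not tested. Depth limits weak regions, since the smallest library, Isl1CKO replicate 1, had a median of 13 counts per region. No group had the 4 samples that a check for outlying values needs.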
